A study of Mus musculus with 7 samples.

Results

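RNA-binding proteins that steer alternative splicing in skeletal muscle were followed in MuSCs, the stem cells of muscle fibers: RBFOX1 and RBFOX2, MBNL1, MBNL2 and MBNL3, CELF1 and CELF2, RBM24, RBM38, and PTBP1. Their 10 genes were taken by symbol from the 56748 genes of the count files, and all 10 were found. Each library had its RNA from MuSCs of hind limb muscle of adult mice. These were sorted magnetically as cells with integrin α7 and without CD31, CD45 and Sca1. The study's general methods keep such cells in myoblast growth medium, but its sequencing methods name no culture step. One group of 3 libraries came from WT mice. The other group of 4 came from homozygous *Jag2sm* mice, labelled as lacking *Jag2* and described by the study as carrying a natural hypomorphic missense allele of this NOTCH ligand, with no other allele or treatment named. The labels do not say whether each library came from its own mouse, so p-values measure the spread between these samples, which may be technical.

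Most muscle genes contain exons that are kept or skipped according to the developmental stage, and the proteins that bind near those exons set the outcome. PTBP1 is abundant in proliferating cells and represses many exons that mature muscle includes, and CELF proteins favor fetal splice forms. RBFOX, MBNL, RBM24 and RBM38 proteins promote the forms of differentiated muscle, and MBNL and CELF proteins act in opposite directions on shared exons, an antagonism known from myotonic dystrophy. The comparison asked whether the amounts of these transcripts differed between *Jag2sm* and WT MuSCs. A count per gene does not show which exons its transcripts contain, so splicing itself was not measured here.

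Reads counted on genes ranged from 187834 in WT replicate 1 to 1937581 in *Jag2sm* replicate 3, and levels are given as CPM, the read count of a gene relative to its TMM-adjusted library size. Counts of 3 reads made 17.3 CPM in WT replicate 1 and 1.48 CPM in *Jag2sm* replicate 3, so low levels in the former are coarse. Among aligned reads, the share that the counting assigned to no annotated feature was 45.1% in WT replicate 1 and 20.8% to 25.7% elsewhere. Where in the genome these reads lie is not given. Unaligned reads made up 2.44% to 3.24% of the total in the WT libraries and in *Jag2sm* replicate 3 and 46.0% to 50.8% in *Jag2sm* replicates 1, 2 and 4, so this share moved with genotype. The targeted gene *Jag2* was at 80.7, 114 and 116 CPM in WT and at 42.4, 78.8, 71.9 and 77.4 CPM in *Jag2sm*, with no overlap between the groups and an adjusted p of 0.166 in edgeR. All 8 markers of myogenic cells passed the filter on low counts, with 4 log2 fold changes below and 4 above 0. Of these, 1, the muscle intermediate filament gene *Des* (-1.63), was called lower, beside 4.84% lower over all genes tested. The number called lower was 1 without WT replicate 1 and 0 without *Jag2sm* replicate 1. The stem cell gene *Pax7* was higher in each *Jag2sm* library than in each WT library, at 0.80, and was not called (adjusted p = 0.174 in edgeR). Summed markers reached at most 17.3 CPM for endothelial cells, 25.5 for fibro-adipogenic cells, 6.64 for immune cells and 9.90 for glial cells in any library, and *Kdr*, *Dpt*, *Lum*, *Ptprc*, *Adgre1*, *Lyz2* and *Cd3e* were at 0 in all 7. The 6 mural markers summed to 646 CPM in *Jag2sm* replicate 1 and to 31.8 to 86.5 in the other libraries. Of the 646 CPM, *Rgs5* made up 645, the other 5 genes were at 0 to 1.41 CPM in that library, and *Abcc9* of the same list was called lower in *Jag2sm* (-3.71). The 5 tenocyte markers summed to 115 to 128 CPM in WT and 30.1 to 76.6 in *Jag2sm*, nearly all of it *Scx* (115 to 120 and 29.1 to 73.4 CPM), which was called lower (-1.34). The part of these genes in the results was not tested.

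Of the 10 splicing regulators, 8 had enough counts to be tested, and 1 of them, *Rbm24*, was called lower in *Jag2sm* at an adjusted p under 0.05 in edgeR's quasi-likelihood test, while none was called higher. Across all 9489 genes tested, 6.26% were called, 4.84% lower and 1.42% higher. At an unadjusted p under 0.05, 2 members were lower and 1 was higher, 3 of 8 beside 19.7% of all genes tested. The median log2 fold change of the 8 was -0.14, with 4 above and 4 below 0, beside a median of 0.05 over all genes tested. DESeq2 and limma-voom also called 1 member lower and none higher. In RNA pooled from many cells, fewer cells that express a gene and less of its RNA per cell cannot be told apart.

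**Figure D1:**
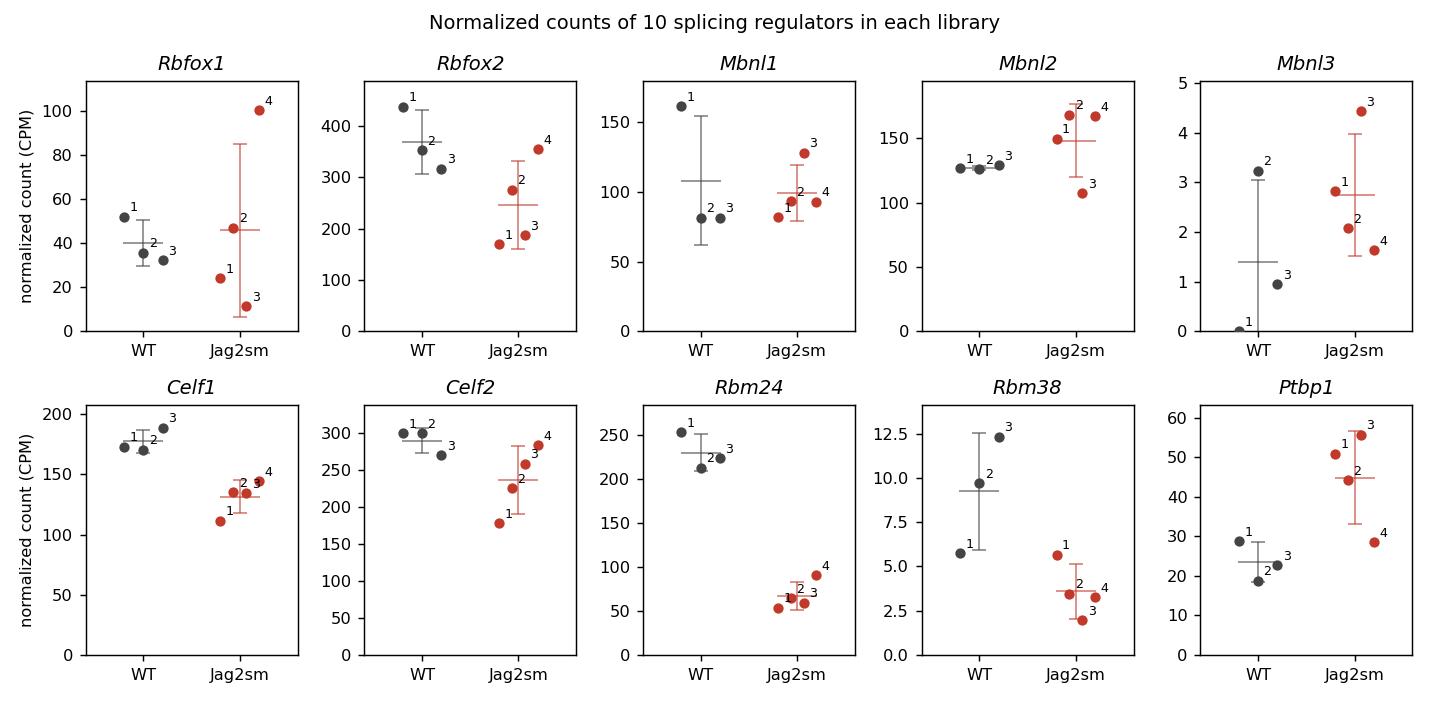
Normalized counts (CPM, vertical axes from 0) of each of the 10 genes in the 3 WT (grey) and 4 *Jag2sm* (red) libraries. Points are libraries with their replicate number, and bars give the mean and SD. For *Rbm24* all *Jag2sm* points, at 53.7 to 90.5 CPM, lie below the lowest WT point at 213 CPM, whereas for *Mbnl1* and *Rbfox1* the groups overlap.

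RBM24 and RBM38 are closely related RNA-binding proteins that promote exon inclusion and transcript stability in differentiating muscle. *Rbm24* (ENSMUSG00000038132, GRCm39 chr13:46571589-46584575, plus strand) was at 254, 213 and 224 CPM in WT replicates 1 to 3 and at 53.7, 64.3, 59.6 and 90.5 CPM in *Jag2sm* replicates 1 to 4. Each *Jag2sm* library lay well below each WT library. The mean was 230 ± 20.9 (SD, 3 libraries) in WT and 67.0 ± 16.2 (SD, 4 libraries) in *Jag2sm*, from 610 and 363 reads. The level in WT was thus 3.39-fold that in *Jag2sm*, a log2 fold change of -1.76 (SE 0.224, 95% interval -2.26 to -1.27) with an adjusted p of 0.00285 in edgeR, rank 29 of the genes tested. An exact two-sided permutation test of this gene alone gave p = 0.0286, the smallest that 35 splits of 7 libraries allow.

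The labels give each library a batch number, and replicates 1, 2 and 3 of both genotypes share theirs. Within these batches *Rbm24* differed by -2.20, -1.70 and -1.88 on the log2 scale, lower in *Jag2sm* in each. Any pairing would give this direction, because the groups did not overlap. Against WT, the only *Jag2sm* library with few unaligned reads, replicate 3, differed by -1.90, with an adjusted p of 0.0890 in an edgeR fit in which this lone sample was assumed to vary like the WT libraries. Without the shallow WT replicate 1 the log2 fold change was -1.71 (adjusted p = 0.00403 in edgeR), and without *Jag2sm* replicate 1, the library with high *Rgs5*, it was -1.67 (adjusted p = 0.0108 in edgeR).

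*Rbm38* (ENSMUSG00000027510, chr2:172862291-172876527, plus strand) had too few reads for the test, 29 in WT and 17 in *Jag2sm*. Its level was 5.76, 9.70 and 12.3 CPM in WT and 5.66, 3.46, 1.97 and 3.26 CPM in *Jag2sm*. The *Jag2sm* values were all lower than the WT values, but the lowest WT value rests on 1 read and lies next to the highest *Jag2sm* value. The pooled count ratio was -1.73 on the log2 scale with an exact 95% binomial interval of -2.69 to -0.82, which covers counting error only. Kept in a fit without the filter, it had a log2 fold change of -1.60 with an adjusted p of 0.113 in edgeR. It passed the threshold in such a fit without WT replicate 1 (-1.73, adjusted p = 0.0471 in edgeR), and its exons overlap *Gm14453* and *Gm20490* on the opposite strand.

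**Figure D2:**
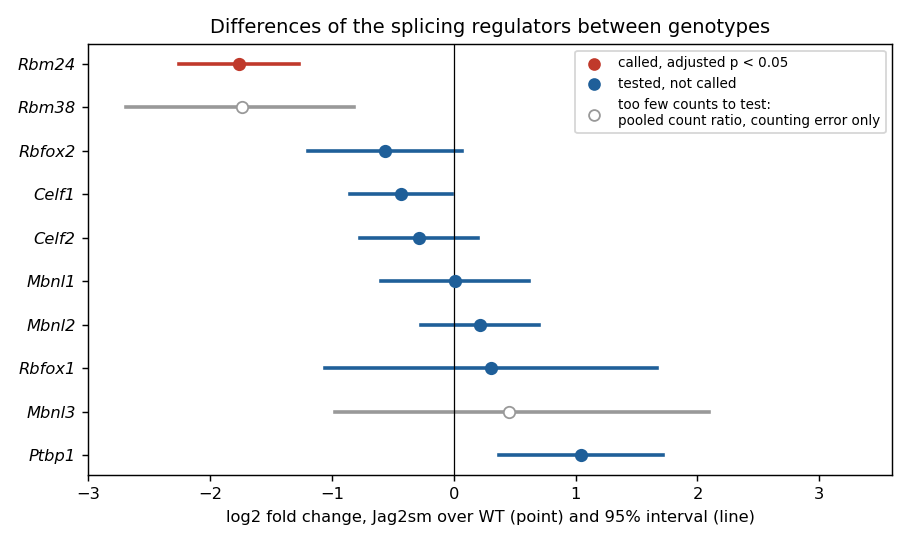
Log2 fold change of *Jag2sm* over WT (horizontal axis) for each gene, with its 95% interval as a line. Filled points come from edgeR, and open points are pooled count ratios of the 2 genes with too few reads, whose intervals cover counting error only. The interval of *Rbm24*, -2.26 to -1.27, lies wholly below 0, and that of *Ptbp1*, 0.37 to 1.72, wholly above, though the latter did not pass the adjusted threshold.

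PTBP1, the polypyrimidine tract-binding protein, represses muscle and neuronal exons in proliferating cells. *Ptbp1* (ENSMUSG00000006498, chr10:79690261-79700605, plus strand) was at 28.8, 18.7 and 22.8 CPM in WT and at 50.9, 44.2, 55.7 and 28.5 CPM in *Jag2sm*. Replicates 1, 2 and 3 of *Jag2sm* were above all WT libraries, and replicate 4 lay just under the highest WT value, which rests on 5 reads. The mean was 23.4 ± 5.07 (SD, 3 libraries) and 44.8 ± 11.8 (SD, 4 libraries), from 58 and 248 reads. The log2 fold change was 1.04 (SE 0.306, 95% interval 0.37 to 1.72), unadjusted p = 0.00600 and adjusted p = 0.0730 in edgeR, so *Ptbp1* was not called. The permutation test gave an exact p of 0.0857.

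Within batches 1, 2 and 3 *Ptbp1* differed by 0.79, 1.17 and 1.23, higher in *Jag2sm* in each, as in any pairing of these libraries. Its call depended on the setting: the adjusted p in edgeR was 0.0340 without *Jag2sm* replicate 4 (log2 fold change 1.21), 0.0302 without the filter on low counts and 0.0467 with scaling to library size alone. That last scaling raised the median of all genes by 0.16, and relative to this median *Ptbp1* stood at 1.00 both with it and with TMM. Exons of *Ptbp1* overlap those of *Plppr3*, *Gm17134* and *E130317F20Rik* on the opposite strand, and since the strand setting of the counting is not given in the sources used here, its count is uncertain. These neighbors had 43, 0 and 37 reads in all 7 libraries, of which 11, 0 and 10 were in WT and 32, 0 and 27 in *Jag2sm*. These read numbers are not scaled, and the TMM-adjusted library sizes summed to 2774986 in WT and 5410536 in *Jag2sm*. The part of such reads in the *Ptbp1* difference was not tested. Opposite-strand genes also overlap exons of *Rbfox1* (*Gm56595* and *Gm61302*), *Rbfox2* (*Gm41352*) and *Mbnl2* (*Gm26679* and *Gm62329*). The counts of these members, like that of *Rbm38*, are uncertain for the same reason.

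The promoters of these genes, the members with the largest tested differences in each direction, are shown as the 250 bases before the start of the canonical transcript (GRCm39, plus strand). The capitals mark E-boxes, the CANNTG motif that myogenic basic helix-loop-helix factors such as MYOD1 and MYOG bind.
Rbm24, chr13:46571339-46571588: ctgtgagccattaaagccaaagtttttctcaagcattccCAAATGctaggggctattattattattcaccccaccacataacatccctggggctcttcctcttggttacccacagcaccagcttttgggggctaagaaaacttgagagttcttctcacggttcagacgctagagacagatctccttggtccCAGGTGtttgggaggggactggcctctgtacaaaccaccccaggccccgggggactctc
Ptbp1, chr10:79690011-79690260: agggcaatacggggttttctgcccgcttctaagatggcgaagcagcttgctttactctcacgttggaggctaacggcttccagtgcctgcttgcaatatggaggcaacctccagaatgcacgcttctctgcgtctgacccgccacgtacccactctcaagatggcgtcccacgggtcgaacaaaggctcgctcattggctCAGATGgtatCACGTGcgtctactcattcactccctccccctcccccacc
Both windows hold 2 E-boxes, and binding of MYOD1 or MYOG to them was not tested. Exons of *Rbm24* overlap those of no other annotated gene, whereas exons of *Ptbp1* overlap the noncoding *E130317F20Rik* on the other strand by 295 bases. An E-box, which reads alike on both strands, occurred in 5 of the 10 members and in 64.8% of 21757 protein-coding promoters. The E-box form CAGCTG occurred in 0 of 10 and in 11.9%, a MEF2-type motif in 0 of 10 and in 3.31%, and the RBFOX-type TGCATG, searched on both strands, in 1 of 10 (*Mbnl3*) and in 8.28%. A match is only a run of letters.

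RBFOX proteins bind UGCAUG next to exons and are strong activators of muscle exons. *Rbfox2* (ENSMUSG00000033565, chr15:76963189-77191303, minus strand) was at 438, 354 and 317 CPM in WT and at 170, 276, 187 and 355 CPM in *Jag2sm*. Replicates 1, 2 and 3 of *Jag2sm* were below all WT libraries and replicate 4 was at the level of WT. The log2 fold change was -0.56 (SE 0.285, 95% interval -1.19 to 0.06) with an adjusted p of 0.308 in edgeR. The interval allows a *Jag2sm* level of 0.437 to 1.05 times the WT level.

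*Rbfox1* (ENSMUSG00000008658, chr16:5124665-7230343, plus strand) was at 51.9, 35.6 and 32.2 CPM in WT and at 24.0, 47.0, 11.3 and 100.3 CPM in *Jag2sm*. The *Jag2sm* libraries spanned from the lowest to the highest of all values, with a coefficient of variation of 86.0% against 26.4% in WT. The log2 fold change was 0.31 (SE 0.616, 95% interval -1.05 to 1.67, adjusted p = 0.841 in edgeR). Its direction rested on replicate 4, without which it was -0.43, and within batches 1, 2 and 3 it was -1.06, 0.39 and -1.38.

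MBNL proteins bind YGCY motifs and promote adult splice forms in striated muscle. *Mbnl1* (ENSMUSG00000027763, chr3:60380102-60537183, plus strand) was at 161, 81.4 and 81.6 CPM in WT and at 82.0, 93.3, 128 and 92.9 CPM in *Jag2sm*. The highest value came from the shallow WT replicate 1, from 28 reads, and every *Jag2sm* value lay inside the WT range. The log2 fold change was 0.01 (SE 0.275, 95% interval -0.60 to 0.61, adjusted p = 0.998 in edgeR). The interval allows a *Jag2sm* level of 0.660 to 1.53 times the WT level.

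*Mbnl2* (ENSMUSG00000022139, chr14:120512932-120669110, plus strand) had the smallest coefficient of variation of the 10 genes in WT, 1.20%. It was at 127, 126 and 129 CPM there and was at 150, 169, 107 and 167 CPM in *Jag2sm*. Replicates 1, 2 and 4 of *Jag2sm* were above WT and replicate 3 below. It thus had a log2 fold change of 0.22 (SE 0.219, 95% interval -0.27 to 0.70, adjusted p = 0.644 in edgeR). *Mbnl3* (ENSMUSG00000036109, chrX:50202383-50295478, minus strand), a paralogue known from myoblasts and placenta, had 6 reads in WT and 16 in *Jag2sm* and was not tested. Its values were 0, 3.23 and 0.948 CPM in WT and 2.83, 2.07, 4.43 and 1.63 CPM in *Jag2sm*, and they overlapped.

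CELF1 and CELF2 bind GU-rich sequences, favor fetal splice forms and, for CELF1, also promote transcript decay. *Celf1* (ENSMUSG00000005506, chr2:90770584-90849842, plus strand) was at 173, 171 and 189 CPM in WT and at 112, 135, 135 and 144 CPM in *Jag2sm*. The groups did not overlap, as was the case for 22.5% of all genes tested and for 2 of the 8 members tested, *Celf1* and *Rbm24*. The fitted difference was small, a log2 fold change of -0.43 (SE 0.189, 95% interval -0.85 to -0.01), and did not pass the test (adjusted p = 0.234 in edgeR, exact permutation p = 0.0286). Within batches 1, 2 and 3 it was -0.62, -0.33 and -0.48, and without overlap any pairing would be lower in *Jag2sm*.

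*Celf2* (ENSMUSG00000002107, chr2:6544505-7514374, minus strand) was at 300, 300 and 270 CPM in WT and at 178, 225, 259 and 284 CPM in *Jag2sm*. Replicates 1, 2 and 3 were below WT and replicate 4 was within its range. Its fitted log2 fold change was -0.29 (SE 0.219, 95% interval -0.77 to 0.20, adjusted p = 0.517 in edgeR). Neither CELF gene was called higher in *Jag2sm*.

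Levels of different genes were compared after division by the length of the canonical transcript. Long reads can cover a whole transcript, and without the division the order differs. By mean CPM it was *Rbfox2* (369), *Celf2* (290), *Rbm24* (230), *Celf1* (177) and *Mbnl2* (127) in WT. In *Jag2sm* it was *Rbfox2* (247), *Celf2* (236), *Mbnl2* (148), *Celf1* (131), *Mbnl1* (99.1) and *Rbm24* (67.0). Which order is nearer to the numbers of transcripts was not tested. Per kb in WT, *Rbfox2* was the highest at 167 ± 28.0 CPM per kb (SD), followed by *Rbm24* at 67.6 ± 6.14 and *Mbnl2* at 55.7 ± 0.667. Next came *Celf2* at 35.4 ± 2.08 and *Celf1* at 22.2 ± 1.23, and the per-kb ranges of all these neighbors over libraries did not overlap. *Mbnl1* at 19.4 ± 8.26 overlapped *Celf1*. *Rbfox1* at 9.06 overlapped *Ptbp1* at 7.54, which overlapped *Rbm38* at 6.63 CPM per kb, and *Mbnl3*, at 0.157, was last and overlapped none.

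In the per-kb order of *Jag2sm*, *Rbfox2* at 111 ± 38.7 CPM per kb and *Mbnl2* at 64.9 ± 12.5 led, and their ranges did not overlap. Per kb *Rbm24* was the fourth, against the second in WT, at 19.7 ± 4.76, behind *Celf2* at 28.9 ± 5.58. From *Celf2* down through *Rbm24*, *Mbnl1* at 17.7, *Celf1* at 16.4, *Ptbp1* at 14.4, *Rbfox1* at 10.4 and *Rbm38* at 2.57 CPM per kb, each gene overlapped the next in range, so this order is not resolved. *Mbnl3* was again last, at 0.309.

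Ratios of counts within a library do not depend on the scaling between libraries and are given without a test. The ratio of *Rbfox2* to *Ptbp1*, an activator and a repressor of muscle exons, was 15.2, 18.9 and 13.9 in WT and 3.33, 6.23, 3.36 and 12.5 in *Jag2sm*. All *Jag2sm* ratios were lower than the WT ratios, but in replicate 4 the exact 95% binomial interval, 8.82 to 18.1, includes the WT values of 15.2 and 13.9. In WT replicate 1, with 5 reads of *Ptbp1*, the interval was 6.24 to 48.2. The ratio of the antagonists *Mbnl1* and *Celf1* was 0.933, 0.477 and 0.432 in WT and 0.734, 0.689, 0.952 and 0.644 in *Jag2sm*. It was higher in each *Jag2sm* library than in WT replicates 2 and 3, while the shallow WT replicate 1 lay among the *Jag2sm* values with an interval of 0.537 to 1.62. The ratio of *Rbm24* to *Rbm38* was 44, 22 and 18.2 in WT and 9.5, 18.6, 30.25 and 27.75 in *Jag2sm*. These groups overlapped, and in each library the ratio rests on few *Rbm38* reads.

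Genes of differentiated muscle were lower in *Jag2sm*. Of 16 such genes, 14 were tested, 13 were called lower and none higher, beside 4.84% lower over all genes tested. Their median log2 fold change was -3.22, beside 0.05 over all genes tested. The fetal myosin gene *Myh8* (-3.88), the transcription factor gene *Mef2c* (-3.83), titin (*Ttn*, -3.39) and the slow troponin gene *Tnni1* (-3.36) differed most. Without WT replicate 1, which had the highest level of these genes, 12 were called lower, and without *Jag2sm* replicate 1 it was 11. This list was chosen with earlier results of these data known, and its direction is no independent evidence. The fall of *Rbm24*, -1.76, was smaller in size than that of each of these tested genes, which ranged from -3.88 to -2.26.

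The summed level of the 16 genes ran from 30172 to 46524 CPM in WT and was 5950, 3901, 1188 and 8225 CPM in *Jag2sm* replicates 1 to 4. Replicate 4, with the highest sum among *Jag2sm* libraries, also had the highest *Rbm24*, *Rbfox1*, *Rbfox2*, *Celf1* and *Celf2* and the lowest *Ptbp1* and *Mbnl3* of that genotype. Replicate 3, with the lowest sum, had the lowest *Rbfox1*, *Mbnl2* and *Rbm38* and the highest *Ptbp1*, *Mbnl1* and *Mbnl3*, whereas *Rbm24*, *Rbfox2*, *Celf1* and *Celf2* were lowest in replicate 1. With 4 libraries this is a description, and the part of differentiation in the differences between genotypes was not tested.

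**Figure D3:**
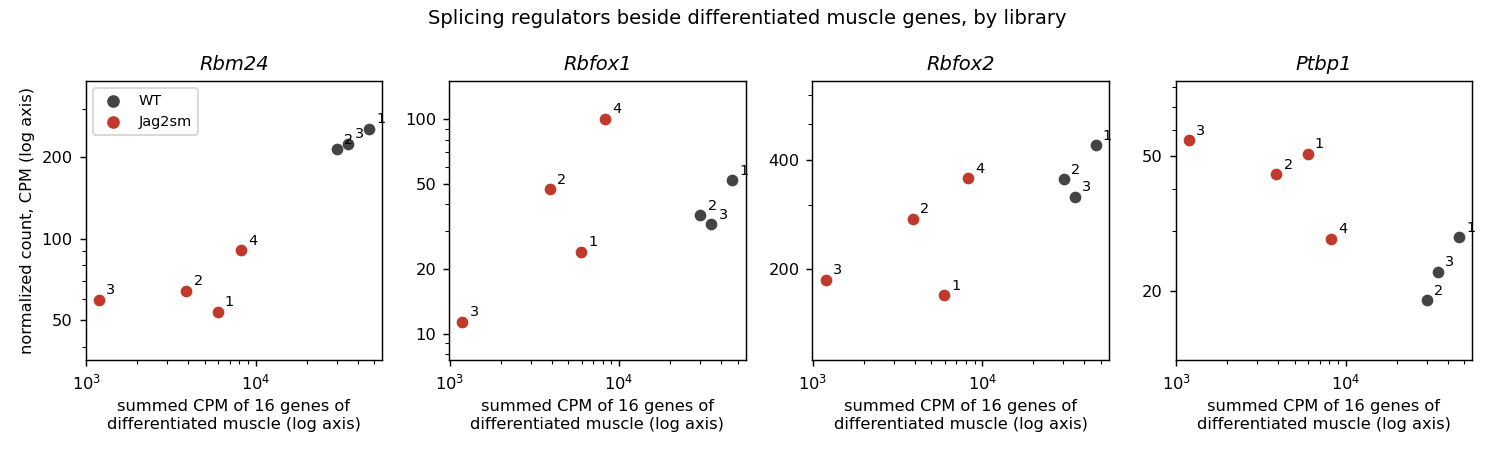
Normalized counts of 4 members (CPM, vertical log axes) against the summed CPM of the 16 genes of differentiated muscle (horizontal log axis) in each library, with its replicate number. WT libraries (grey) sit at 30172 to 46524 CPM of the sum and *Jag2sm* libraries (red) at 1188 to 8225. Replicate 4 of *Jag2sm*, at 8225, has the highest *Rbm24*, *Rbfox1* and *Rbfox2* and the lowest *Ptbp1* among red points.

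The genes whose log2 CPM followed that of *Rbm24* most closely over the 7 libraries were *Wdr44* (Pearson r = 0.995), the tropomyosin gene *Tpm1* (r = 0.994) and the actin-associated *Palld* (r = 0.993). The gap between the genotypes enters these values. With each genotype centered on its mean they were 0.913, 0.937 and 0.880. These genes were picked for the highest r over the same 7 libraries, which favors high centered values too.

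Transcripts known as splicing targets of the members were lower in *Jag2sm* for most genes of the list. Of 16 target genes, 15 were tested, 11 were called lower and none higher, beside 4.84% lower over all genes tested. Their median log2 fold change was -1.63, beside 0.05 over all genes tested. The 3 targets above 0 were *Fn1* (1.00), *Actn1* (0.38) and *Pkm* (0.19), and none of them was called. This list was also chosen with earlier results of these data known, and its direction is no independent evidence. Without WT replicate 1 the number called lower was 10, without *Jag2sm* replicate 1 it was 8, and with *Jag2sm* replicate 3 alone against WT it was 4. The calcium channel gene *Cacna1s* (-3.87), the sarcoplasmic calcium pump gene *Atp2a1* (-3.79), the Z-disc gene *Ldb3* (-3.64) and fast troponin T (*Tnnt3*, -3.30) differed most, and *Tpm1*, which is both a target and among the genes that followed *Rbm24*, was at -1.54. *Tnnt3*, for example, was at 2219, 1512 and 1946 CPM in WT and at 226, 162, 53.7 and 328 CPM in *Jag2sm*. Most targets encode proteins of the contractile and calcium-handling apparatus, and these values are amounts of the gene and not of a splice form.

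Of the splicing factors outside the members, edgeR called none of 13 SR proteins tested, which bind exonic enhancers (median 0.20, 12 of 13 above 0). It also called none of 21 hnRNP proteins, which often oppose them (median 0.14, 17 of 21 above 0), and none of 18 other regulators (median 0.08). None was called among 3 tested paralogues of the members either (median 0.56). Over all genes tested 6.26% were called, so lists this short would hold few calls at that share. At an unadjusted p under 0.05 there were 1, 0, 3 and 1 genes in these lists, beside 19.7% of all genes tested, and DESeq2 and limma-voom called 0 in each. The 3 other regulators were *Rbm20* (log2 fold change -1.07), *Qki* (-0.64) and *Rbpms2* (1.25). The SR protein gene was *Srsf9* (0.72) and the paralogue was *Celf4* (1.09). Without the filter on low counts edgeR called 0, 0, 2 and 1, beside 1248 of all 25189 genes tested in that fit.

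Among the kinases that phosphorylate SR proteins, 1 of 6 tested was called, beside 6.26% of all genes tested. *Srpk3*, a kinase specific to striated muscle, was at 46.1, 40.7 and 36.0 CPM in WT and at 5.66, 2.76, 1.48 and 8.15 CPM in *Jag2sm*. The groups lay far apart, with a log2 fold change of -3.26 (SE 0.445, adjusted p = 0.00369 in edgeR), while the other 5 kinases ranged from -0.16 to 0.24.

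**Figure D4:**
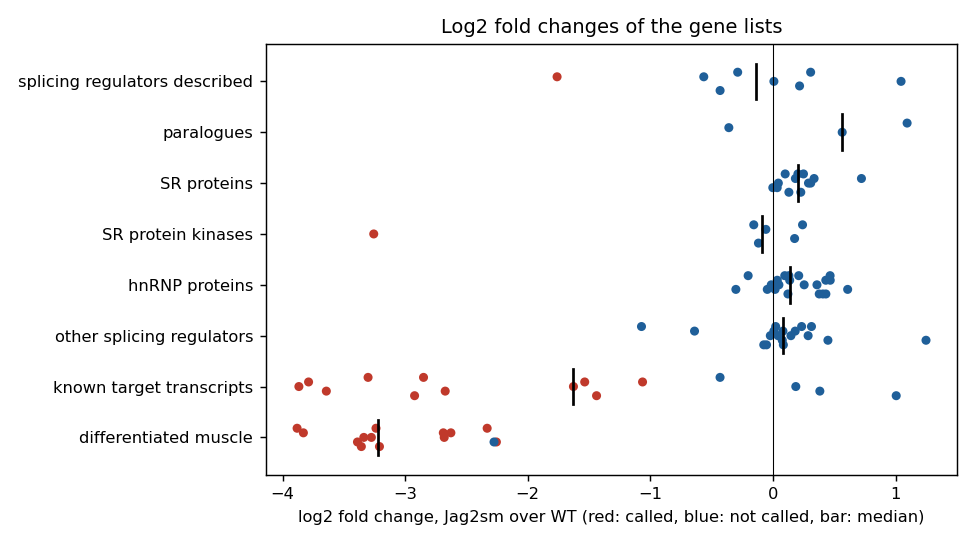
Log2 fold changes of *Jag2sm* over WT (horizontal axis) for the tested genes of each list (rows). Red points were called at an adjusted p under 0.05, blue points were not, and black bars are list medians. The median is -0.14 for the splicing regulators described, 0.20 for SR proteins and 0.14 for hnRNP proteins, and -1.63 for known target transcripts and -3.22 for differentiated muscle.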

How the data were processed

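The authors prepared direct cDNA libraries for nanopore sequencing from 3 WT and 4 *Jag2sm* RNA samples, pooled the barcoded libraries on a pair of flow cells, called bases with dorado, used minimap2 2.17 to align the reads to GRCm39 and obtained counts per gene from htseq. They deposited raw counts of 56748 genes per library, without normalization. The version and strand setting of htseq and the annotation release are not given in the sources used here. The table of the authors' own DESeq2 comparison, in R 4.3.0 per the labels, holds mean signal, fold changes and p-values and was not used. Reads without a gene stayed out of library sizes.

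Identifiers were matched to GENCODE M39, which held 56017 of them, and *Qki* was matched under this current symbol. Promoters were read from GRCm39 with pysam 0.24.0. In R 4.3.3, edgeR 4.0.16 kept genes by filterByExpr (minimum count 10, total 15), which left 9489, scaled libraries by TMM and compared genotypes with glmQLFit and glmQLFTest without covariates, with Benjamini-Hochberg adjustment over all genes tested and a call under 0.05. Permutation tests were exact and two-sided on mean log2 CPM with a prior count of 2. The fit was tested on simulated data. No 2 libraries agreed within sampling noise.

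The labels' batch number equals the replicate number, so replicates 1, 2 and 3 of the genotypes share a batch by label; what the batch was is not given in the sources used here. Deviations from the genotype means correlated at 0.0740, 0.0144 and 0.0539 across 9489 genes, which are not independent replicates. The batch as a block changed no member's call.

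The members and all gene lists (paralogues, SR proteins, SR kinases, hnRNP proteins, other regulators, targets, differentiated muscle and cell type markers) were chosen with earlier results of these data known. The text names all members, up to 4 called genes per list with the largest differences, the 3 genes most correlated with a called member, and *Jag2*. Cell type markers, *Tpm1* as a target and neighbors on the other strand were named after their values were seen. So were the targets above 0 and the uncalled splicing factors with an unadjusted p under 0.05. Alternatives were DESeq2 1.42.0, limma-voom (limma 3.58.1), DESeq2's size factors, library size alone, no filter, at least 10 counts in every library, the replicate block, thinning to the smallest library and leaving out each library. An alternative with only the libraries under 5% unaligned reads was added after seeing the data.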

Additional observations from a re-analysis of the deposited data

How the results depend on the processing

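The number of members called was 1 under most settings. It was 2, with *Ptbp1* added to *Rbm24*, with library size alone and with no filter on low counts, and ranged from 1 to 2 when single libraries were left out. It was 0 when only libraries with under 5% unaligned reads were kept, a choice made after seeing the data that leaves 1 *Jag2sm* library. The median log2 fold change of the tested members, -0.14, was 0.019 with library size alone, -0.43 with the replicate block, -0.28 over the 6 members kept after thinning, -0.29 with only the low-unaligned libraries, and -0.41 to -0.038 when single libraries were left out, lowest without *Jag2sm* replicate 4. Paired by batch in the replicate block, 1 member was called and no member's call changed (*Rbm24* -1.94, adjusted p = 0.00381 in edgeR, and *Ptbp1* 1.18, adjusted p = 0.0548). *Rbfox1* reversed to -0.11 in limma-voom, -0.58 with the block, -0.43 without *Jag2sm* replicate 4 and -1.65 with the low-unaligned libraries, with a range of -0.43 to 0.68 over single libraries left out. *Mbnl1* reversed to -0.069 after thinning, -0.16 and -0.17 without WT replicates 2 and 3 and -0.13 without *Jag2sm* replicate 3, with a range of -0.17 to 0.28 over single libraries left out, and *Mbnl2* to -0.21 with the low-unaligned libraries. The cause of these changes was not tested. Of 140 results of single members under another setting, 126 kept direction and side of the threshold, 4 passed it newly, 1 lost it (*Rbm24* with the low-unaligned libraries) and 9 reversed. *Rbm24* was called in 15 of 16 settings, at -1.96 to -1.60. Over all genes, 594 were called, against 1248 without the filter, 274 with at least 10 counts in every library, 248 after thinning, 221 with the low-unaligned libraries and 251 to 616 with single libraries left out. In WT replicate 1, *Rbm38* rests on 1 read and *Mbnl3* on 0.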
